A study of Mus musculus with 8 samples.

Results

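The genes described here are those whose symbol in the deposited table begins with Polr1, Polr3, Utp, Rrp, Nop, Nol or Noc followed by a subunit letter or number. They number 52 of the 38918 genes in the table. They encode subunits of RNA polymerase I (Pol I) and RNA polymerase III (Pol III) and proteins that process ribosomal RNA and assemble ribosomes. Poly(A) RNA had been sequenced from BMiFLT3 (15-3) cells, a line of pro-B cells from a mouse B-cell precursor leukaemia. The cells carried either a retrovirus for blue fluorescent protein (BFP), the control, or a retrovirus for Klf2, a zinc-finger transcription factor. The column names of both groups contain BFP. The labels give no time after infection, dose or clone, and name a pair of library kits without saying which was used for which group. The design asks which genes differ when Klf2 is overexpressed.

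Ribosome production starts in the nucleolus, where Pol I transcribes the precursor of most ribosomal RNAs, while Pol III makes the 5S ribosomal RNA, the transfer RNAs and other short RNAs in the nucleoplasm. The precursor is modified by small nucleolar ribonucleoproteins (snoRNPs), cleaved, and folded with ribosomal proteins by assembly factors of the small and large subunits. In lymphoid cells this system is known to be raised with growth and division, and MYC is a well known activator of its genes. Poly(A) sequencing measures the messenger RNAs of these proteins, and not the ribosomal or transfer RNAs that the polymerases make.

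Each group was deposited as 4 samples, which are 4 lanes of 1 library. The lane counts of the members differed by about sampling noise (chi-square per degree of freedom 1.16 in BFP and 0.849 in Klf2), so the lanes were summed and n = 1 library per group. Over all genes with at least 20 reads the value was 1.29 in BFP and 1.27 in Klf2, somewhat more than sampling noise. By uniquely placed reads it was 1.03 in each. With no replicate library, the differences below carry no p-value. The libraries held 30133978 (BFP) and 30835450 (Klf2) exon reads, between 7506567 and 7741626 per lane. Levels are CPM, exon reads scaled to library size with the TMM factor, ratios are Klf2 over BFP, and every interval is an exact 95% interval for counting error only. Klf2 itself was between 9.07 and 11.4 CPM in the BFP lanes and between 109 and 114 CPM in the Klf2 lanes, a ratio of 11.1 (9.93 to 12.6). Of 10 B-lineage markers, 7 reached 1 CPM, among them Cd79a at 962 and 903 CPM in BFP and Klf2, while Rag1, Rag2 and Dntt did not. Of 6 T-cell markers, Cd3e, Cd4 and Cd8a had 0 reads and Lck, a kinase also found in B-lineage cells, was at 12.3 and 27.1 CPM. Cd14 and Csf1r, at 3.70 and 3.76 CPM in BFP and 2.01 and 2.34 CPM in Klf2, were the highest of 8 myeloid markers, and Itga2b the highest of 6 erythroid and megakaryocyte markers, at 2.22 and 1.54 CPM. Within the B-lineage list, Igll1 and Vpreb1 were higher in Klf2 and the other 5 lower. The part of these marker differences in the results below was not tested. In bulk RNA, fewer cells with a transcript and less of it per cell cannot be told apart.

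The genes for ribosome production were higher in the Klf2 library almost throughout, by a modest fold. Of the 52 members, 49 reached the floor of 1 CPM in either library. The interval lay above 1 for 45 of these, below 1 for 1 and held 1 for 3, where 37.1% of all 10850 measured genes had an interval above 1 and 37.3% one below. The median log2 ratio of the members was 0.45, a ratio of 1.36, against -0.01 over all measured genes. A ratio of at least 1.5 was reached by 13 members, where 10.2% of all measured genes reached it, and 0 members were at least 1.5-fold lower, where 13.9% of all genes were. At 2-fold, 0 members were higher and 0 lower, where 2.45% and 5.67% of all measured genes were. The members' summed level was 5124 CPM in BFP and 7143 CPM in Klf2, a ratio of 1.39. The summed level of all measured genes had a ratio of 1.06. Every Klf2 lane stood above every BFP lane for 45 measured members, where 32.3% of all measured genes showed that order, and below for 1, where 30.7% did.

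**Figure D1:**
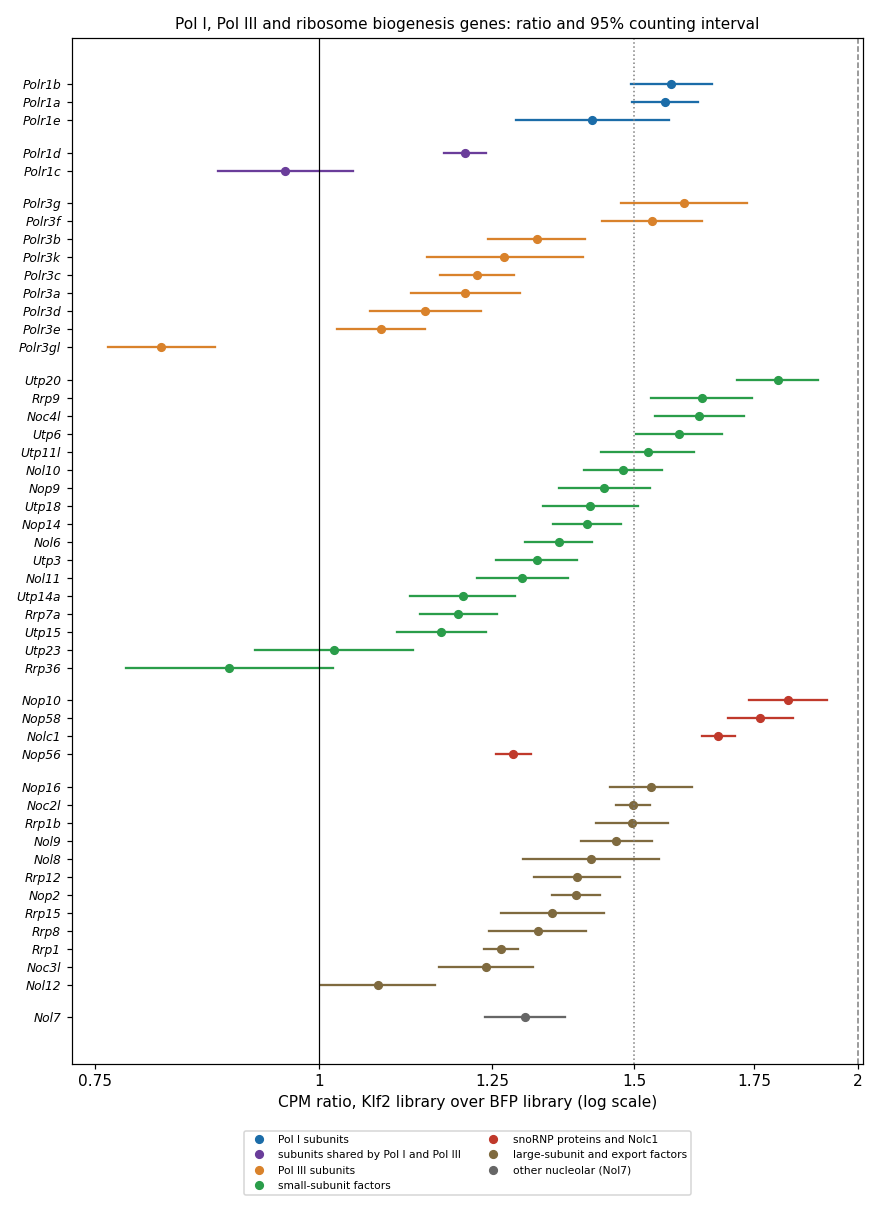
CPM ratio of the Klf2 library over the BFP library on a log axis for 48 of the 49 measured members, with exact 95% intervals for counting error as bars, coloured by role; the dotted line marks 1.5 and the dashed line 2. Points run from 0.817 for Polr3gl to 1.83 for Nop10, and 44 of the intervals drawn lie to the right of 1.

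The number past 1.5-fold rests on the scaling. With total exon reads and no TMM factor it was 7 members (7.1% of all measured genes). With the median of the genes of highest level, the top 1 of 5 equal groups by mean CPM, set to 0, which lowers every log2 ratio by 0.17, it was 3 (5.4%). The intervals above 1 were then 43 and 41 of 49, where 30.4% and 25.3% of all measured genes had one. Members closest to the 1.5 limit were Utp11l at 1.526 on the inner side and Noc2l at 1.498 on the outer side. At the floor of 1 CPM the gap was wide, with Rrp36 at 15.7 and 14.0 CPM as the lowest measured member. Below the floor were Nol3, an inhibitor of apoptosis that shares only the name, with 4 reads in each library, Nol4, with 0 exon reads, and Utp14b, a retrogene copy of Utp14a known from testis, with 0 reads in BFP and 14 in Klf2. Utp14b lies within the Acsl3 locus on the same strand, and reads of the 2 genes may not be told apart.

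By name prefix, the median log2 ratio was 0.58 for 3 Noc genes, 0.53 for 7 Nop genes, 0.51 for 5 Polr1 genes and 0.48 for 8 Nol genes. It was 0.45 for 8 Utp genes, 0.42 for 8 Rrp genes and 0.31 for 10 Polr3 genes. The Polr3 set thus had the lowest median and also held the only member with an interval below 1. These prefix differences were not tested, since genes of a prefix are not replicates.

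Of the subunits that belong to Pol I alone, all 3 that the prefix finds were higher. Over all measured genes, 37.1% had an interval above 1. Polr1a encodes the largest subunit and forms the active site with the product of Polr1b. Polr1a (chromosome 6, 71909053 to 71979356, mm10) was at 123, 113, 113 and 115 CPM in BFP lanes 1 to 4 and at 182, 186, 184 and 174 CPM in the Klf2 lanes. The groups of lanes did not overlap, and the ratio was 1.56 (1.497 to 1.63). Polr1b (chromosome 2, 129100995 to 129126594) ran from 73.3 to 81.2 CPM in BFP and from 117 to 125 CPM in Klf2, a ratio of 1.57 (1.49 to 1.66). Polr1e, which encodes the initiation-linked subunit PAF53, was the lowest of the set from 20.6 to 23.6 CPM in BFP and from 31.2 to 32.5 CPM in Klf2, a ratio of 1.42 (1.29 to 1.57).

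Of the subunits shared by Pol I and Pol III, 1 was higher and the interval of the other held 1. Polr1c and Polr1d encode the assembly pair that sits in both Pol I and Pol III. Polr1c (chromosome 17, 46243920 to 46248054) was at 35.6, 32.6, 35.6 and 37.4 CPM in the BFP lanes and at 36.2, 34.1, 32.4 and 32.7 CPM in the Klf2 lanes. These lanes overlapped, and the ratio of 0.958 (0.879 to 1.04) held 1. With total exon reads its interval lay below 1, at a ratio of 0.900. Polr1d (chromosome 5, 147077050 to 147111361) was higher, from 305 to 317 CPM in BFP and from 367 to 389 CPM in Klf2, a ratio of 1.21 (1.17 to 1.24), with 56.0% of reads uniquely placed and a ratio of 1.27 on those. Per exon length, Polr1d was far above its partner, at a deposited RPKM of 137 against 13.6 in BFP and 155 against 12.2 in Klf2.

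**Figure D2:**
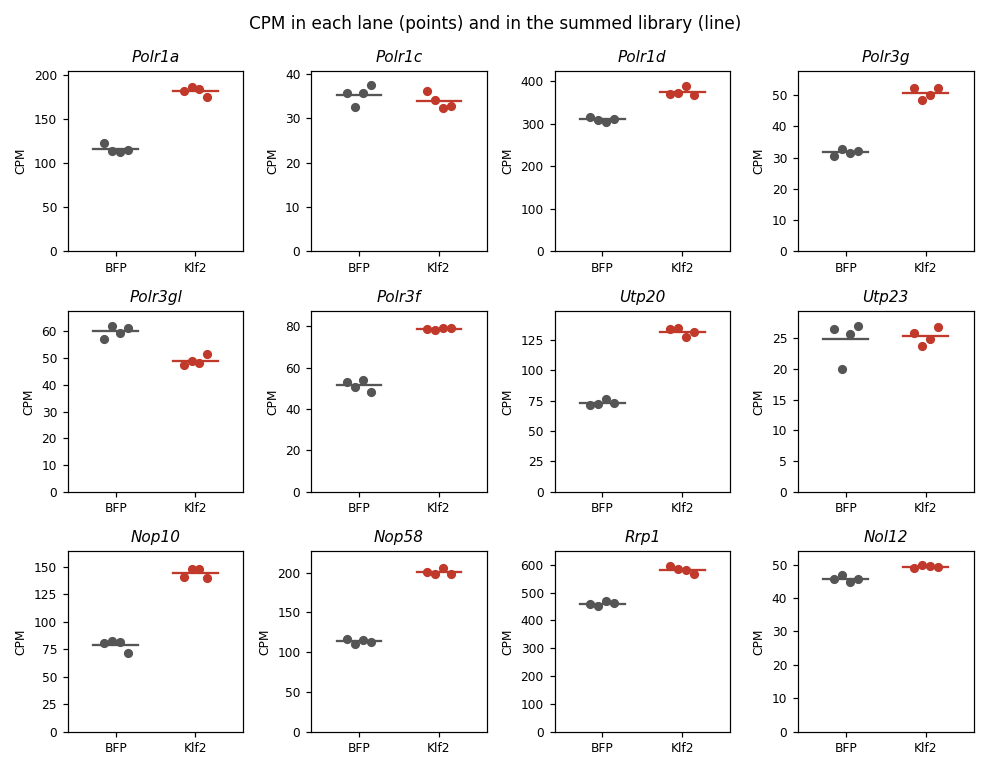
CPM of 12 members in each of the 4 lanes of a library (points) and in the summed library (line), with every axis starting at 0. Lanes of the BFP and Klf2 libraries overlap for Polr1c and Utp23, the Klf2 lanes lie below for Polr3gl, and they lie above for the other 9.

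Pol III subunits were higher by smaller steps, with a pair of related genes in opposite directions. Polr3g and Polr3gl encode alternative forms of the same subunit, RPC7 alpha and RPC7 beta, so a Pol III complex holds one or the other. The first is known for its high level in stem and tumour cells, the second for its presence in most tissues. The bases before the annotated start of both genes are given because they are the only related pair of members with intervals on opposite sides of 1, beside those of Utp20, the member of the small-subunit group with the highest ratio. The 3 windows are 250 bases long, from RefSeq (GRCm38.p6), on the minus strand and written 5′ to 3′: chr13:81711014-81711263 for Polr3g, chr3:96594182-96594431 for Polr3gl and chr10:88826815-88827064 for Utp20. Capitals mark CACGTG, the E-box read by MYC and its relatives, and CCGGAAG (here on the other strand, CTTCCGG), a site read by ETS factors.
Polr3g: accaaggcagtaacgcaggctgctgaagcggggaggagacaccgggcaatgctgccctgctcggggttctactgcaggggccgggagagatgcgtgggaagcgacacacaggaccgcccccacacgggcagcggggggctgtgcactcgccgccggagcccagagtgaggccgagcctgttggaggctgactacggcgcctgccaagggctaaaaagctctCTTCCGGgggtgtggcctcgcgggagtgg
Polr3gl: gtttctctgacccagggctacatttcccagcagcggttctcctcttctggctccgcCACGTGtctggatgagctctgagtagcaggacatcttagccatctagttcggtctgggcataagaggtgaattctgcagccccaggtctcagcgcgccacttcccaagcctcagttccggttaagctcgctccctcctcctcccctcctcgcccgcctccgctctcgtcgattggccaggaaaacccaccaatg
Utp20: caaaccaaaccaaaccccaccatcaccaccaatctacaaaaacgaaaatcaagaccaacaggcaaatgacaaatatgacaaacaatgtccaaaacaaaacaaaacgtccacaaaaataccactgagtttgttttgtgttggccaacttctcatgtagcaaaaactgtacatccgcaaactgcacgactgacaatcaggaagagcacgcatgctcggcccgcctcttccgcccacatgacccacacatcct

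Polr3g (chromosome 13, 81673843 to 81711013) was at 30.6, 32.8, 31.5 and 32.2 CPM in the BFP lanes and at 52.4, 48.5, 50.1 and 52.1 CPM in the Klf2 lanes. The Klf2 lanes all stood above, with a ratio of 1.599 (1.475 to 1.73). Polr3gl (chromosome 3, 96577872 to 96594181) went the other way, at 57.2, 61.9, 59.5 and 61.4 CPM in BFP and 47.6, 48.8, 48.2 and 51.5 CPM in Klf2. Its lanes did not overlap either, and the ratio of 0.817 (0.762 to 0.875) was the lowest of the measured members. Only 35.3% of Polr3gl reads were uniquely placed, and on those the ratio was 0.861 (0.766 to 0.967). Intron reads of the pair showed the same directions, with 289 against 411 for Polr3g (ratio 1.48, 1.27 to 1.73) and 1581 against 959 for Polr3gl (0.631, 0.582 to 0.684). By deposited RPKM, the per-length scale, Polr3g made up 17.5% to 17.8% of the pair's sum in the BFP lanes and 28.7% to 30.9% in the Klf2 lanes. On that scale Polr3gl was the higher of the pair, at an RPKM of 32.9 and 25.3 in BFP and Klf2 against 7.06 and 10.6 for Polr3g. Uniquely placed reads per exon length, scaled to exon reads as an RPKM, gave 13.4 and 10.8 for Polr3gl and 8.33 and 12.5 for Polr3g. These values use another read total than the deposited RPKM. They also use the full exon length, without correction for bases where reads cannot be placed uniquely. The order of the pair in the Klf2 library thus cannot be told from them. In the windows above, the CACGTG lies before Polr3gl and the ETS-type letters before Polr3g. The Polr3g window also holds GGGTG and GGGCGG, motifs described below, and the Polr3gl window holds neither. The other measured members with CACGTG were all higher. Of the other members with the ETS-type letters, Polr1c and Rrp36 had an interval that held 1 and the rest were higher. A link between these letters and direction was not tested.

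The other 8 Pol III genes were all higher, with intervals above 1, where 37.1% of all measured genes had one. Polr3f, whose product (RPC6) binds Polr3g or Polr3gl protein in the initiation subcomplex, was at 51.5 and 78.9 CPM, a ratio of 1.53 (1.44 to 1.64), and Polr3c, the third partner (RPC3), at 104 and 128 CPM, a ratio of 1.23 (1.17 to 1.28). The catalytic subunits Polr3a and Polr3b had ratios of 1.21 (1.13 to 1.30) and 1.32 (1.24 to 1.41), below those of their Pol I counterparts Polr1a and Polr1b, whose intervals did not overlap them. Polr3k, needed for termination, was at 22.9 and 29.1 CPM. The smallest steps were in the pair that forms a TFIIF-like subcomplex, Polr3d at 1.15 (1.07 to 1.23) and Polr3e at 1.083 (1.02 to 1.15). With the top level group set to 0, Polr3e was at 0.965 and the Polr3d interval held 1, so the direction of Polr3e rests on the scaling.

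Factors of the small-subunit processome, the large particle that forms on the newly made precursor, had an interval above 1 in 15 of 17 measured cases. Over all measured genes the share was 37.1%. Utp20, a very long scaffold protein (chromosome 10, 88746607 to 88826814, 62 annotated exons), was at 71.3, 72.1, 76.2 and 73.0 CPM in BFP and at 134, 135, 128 and 131 CPM in Klf2. These lanes were far apart, and the ratio of 1.804 (1.71 to 1.90) was the highest of the group. Rrp9, a protein of the U3 snoRNP that guides the first cleavages, was at 49.4 and 80.7 CPM, a ratio of 1.64 (1.53 to 1.74). It overlaps Parp3 on the opposite strand, a gene that was lower, at 1163 against 616 reads. Noc4l, the partner of Nop14 in the particle, was at 62.3 and 102 CPM (1.63, 1.54 to 1.73), and Nop14 itself at 113 and 160 CPM (159.7), a ratio of 1.41 (1.35 to 1.48). Utp6 and Utp11l were the other 2 past 1.5, at 1.59 (1.503 to 1.68) and 1.53 (1.44 to 1.62).

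In the middle of this group stood Nol10 at 1.48, Nop9 at 1.44, Utp18 at 1.42, Nol6 at 1.36, Utp3 at 1.32 and Nol11 at 1.30, the last a factor that also supports Pol I transcription. Utp14a, which works with an RNA helicase, ran from 48.5 to 52.9 CPM in BFP and from 55.6 to 65.8 CPM in Klf2, a ratio of 1.20 with 59.7% of reads uniquely placed. Rrp7a was at 1.20 with 40.2%, and Utp15, of the complex that joins the precursor first, at 1.17, with an interval that held 1 when the top level group was set to 0 (1.04). The 2 whose interval held 1 were Utp23 and Rrp36. Utp23 helps release the snR30 snoRNP in yeast. It was at 26.6, 19.96, 25.8 and 26.95 CPM in BFP and 25.8, 23.7, 24.8 and 26.9 CPM in Klf2. The lanes overlapped widely, with a ratio of 1.02 (0.922 to 1.13). Rrp36 was at 15.7 and 14.0 CPM, a ratio of 0.892 (0.781 to 1.02), and at 1.03 by its uniquely placed reads alone, 42.0% of the total. Its lanes overlapped, from 12.9 to 17.5 CPM in BFP and from 12.97 to 15.9 CPM in Klf2, and with total exon reads or without lane 3 its interval lay below 1. It is covered over its whole length by Gm26904 on the opposite strand, and whether strand was used in counting is not given in the sources used here.

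All 4 measured snoRNP proteins, Nolc1 counted with them, were higher, over a wide range of ratios. Over all measured genes, 37.1% had an interval above 1. Nop10, a small core protein of the H/ACA class that converts uridine to pseudouridine (chromosome 2, 112261926 to 112263269), was at 80.2, 82.2, 81.4 and 71.3 CPM in BFP and 141, 148, 147 and 139.7 CPM in Klf2. Its ratio of 1.83 (1.74 to 1.92) was the highest of the 49. Nop58 and Nop56 are the paired core proteins of the box C/D class, which guides ribose methylation. Nop58 (chromosome 1, 59685006 to 59711510) ran from 110.5 to 116 CPM in BFP and from 198 to 205 CPM in Klf2, a ratio of 1.76 (1.69 to 1.84). Nop56 (chromosome 2, 130274430 to 130279313) ran from 445 to 469 CPM and from 582 to 604 CPM, a ratio of 1.28 (1.26 to 1.31), with 69.1% of reads uniquely placed and a ratio of 1.21 on those. The intervals of this pair did not overlap. By RPKM, Nop56 stood 1.95 times above Nop58 in BFP and 1.42 times above it in Klf2, and both genes hold snoRNA genes in their introns. Nolc1, a chaperone that binds both snoRNP classes and Pol I, was at 425 and 710.4 CPM, a ratio of 1.67 (1.64 to 1.71), and had the highest Klf2 level in CPM of all the members.

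Large-subunit and export factors had an interval above 1 in 12 of 12 cases, where 37.1% of all measured genes did. Most were higher by less than 1.5-fold. Nop16 was the sole one past that limit, from 69.7 to 82.0 CPM in BFP and from 110.4 to 123 CPM in Klf2, a ratio of 1.53 (1.45 to 1.62). Noc2l, a factor of early pre-60S particles that also binds p53, ran from 428 to 444 CPM in BFP and from 639.6 to 666 CPM in Klf2, a ratio of 1.498 (1.46 to 1.53). Rrp1b, a nucleolar regulator of a phosphatase, ran from 94.1 to 104 CPM and from 147 to 155 CPM, a ratio of 1.496 (1.43 to 1.57). Its relative Rrp1 was the member with the highest RPKM, 200.5 in BFP and 238 in Klf2, and had a smaller ratio of 1.26 (1.24 to 1.29), from 452 to 470.5 CPM and from 567 to 594 CPM. Between these lay Nol9, a kinase of RNA 5′ ends at 1.47, Nol8 at 1.42, Nop2, a methyltransferase of 28S ribosomal RNA long used as a proliferation marker, at 1.39, and Rrp12, an export factor, also at 1.39. Rrp15, Rrp8 and Noc3l, the partner of Noc2l in later particles, were at 1.35, 1.32 and 1.24. Nol12 was lowest, from 44.8 to 46.8 CPM in BFP and from 49.1 to 49.8 CPM in Klf2. Its lanes did not overlap, but the interval of 1.003 to 1.16 barely excluded 1, held 1 when any of the 4 lanes was left out, and the ratio was 0.961 with the top level group set to 0. Nol7, a nucleolar protein placed in no subunit here, was at 84.2 and 110 CPM (109.8), a ratio of 1.30 (1.24 to 1.37).

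Highly expressed genes of these libraries leaned upwards as a whole, so the members were set beside genes of their own level. All measured genes were put in 5 groups of equal size by mean CPM, from group 1, the lowest, to group 5, the highest. The groups' log2 medians lay between -0.20 in group 1 and 0.17 in group 5. No member lay in group 1, 1 in group 2 (Rrp36), 10 in group 3, 24 in group 4 and 14 in group 5. Member medians were 0.30, 0.46 and 0.53 in groups 3, 4 and 5, against -0.03, 0.06 and 0.17 for all genes there. Of the 49, 46 were above the median of their own group, the exceptions being Polr3gl, Polr1c and Rrp36. In group 5, 4 of 14 members passed 1.5-fold, where 14.0% of all its genes did, in group 4 it was 8 of 24, where 9.26% did, and in group 3 it was 1 of 10, where 7.28% did. Across the 49 members the ratio was weakly related to level (Pearson r = 0.38, Spearman rho = 0.39). These are genes of the same 2 libraries, not independent points.

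**Figure D3:**
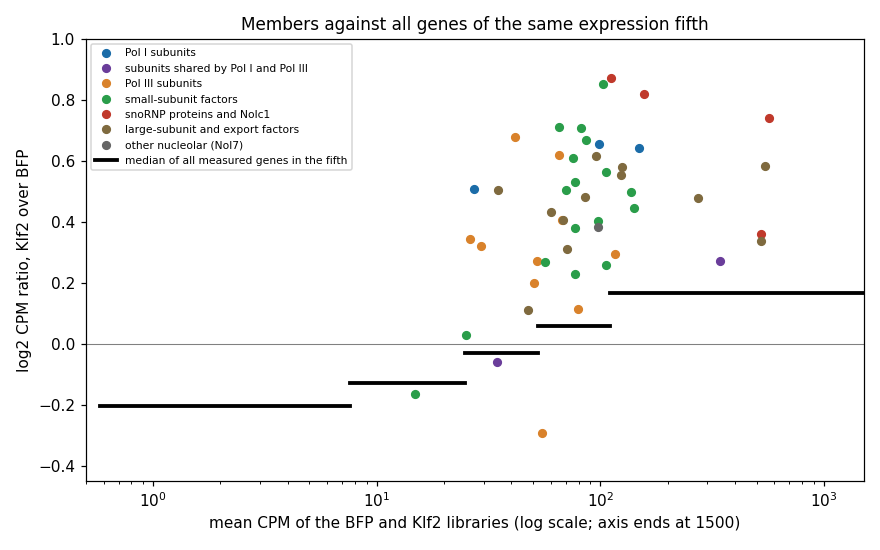
Log2 CPM ratio of each measured member against its mean CPM over both libraries (log axis), coloured by role, with black bars for the median of all measured genes in each of the 5 level groups. 46 of the 49 points lie above the bar of their group.

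Reads within introns, which come mostly from unspliced RNA, were a separate readout of the same genes. Counted were 45 measured members with at least 100 intron reads over both libraries. Their intron interval lay above 1 for 22, below 1 for 8 and held 1 for 15, where 31.8% of all genes with as many intron reads were above and 28.5% below. The median intron log2 ratio was 0.19, against 0.48 for the exon reads of the same 45 members and 0.01 for the introns of all genes. The intron ratio was below the exon ratio for 33 of 45 members, where 52.2% of all genes showed that order. Nol10 had the largest intron ratio, 550 against 1114 reads or 2.11 (1.90 to 2.34), above its exon ratio of 1.48. Utp20 and Nop58 were higher in both readouts, with intron ratios of 1.88 (1.66 to 2.13) and 1.66 (1.57 to 1.76). Rrp1 was higher in exon reads but lower in intron reads, at 1155 against 810 reads, a ratio of 0.730 (0.666 to 0.799). Utp23, near 1 in exon reads, had an intron ratio of 0.623 (0.487 to 0.794), and Polr1c one of 1.55 from only 51 against 76 reads. Since strand may not have been used, intron reads can include those of a gene on the opposite strand. Reads across exon junctions, which come from spliced RNA, had an interval above 1 for 42 of 49 members, where 26.8% of all measured genes did.

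**Figure D4:**
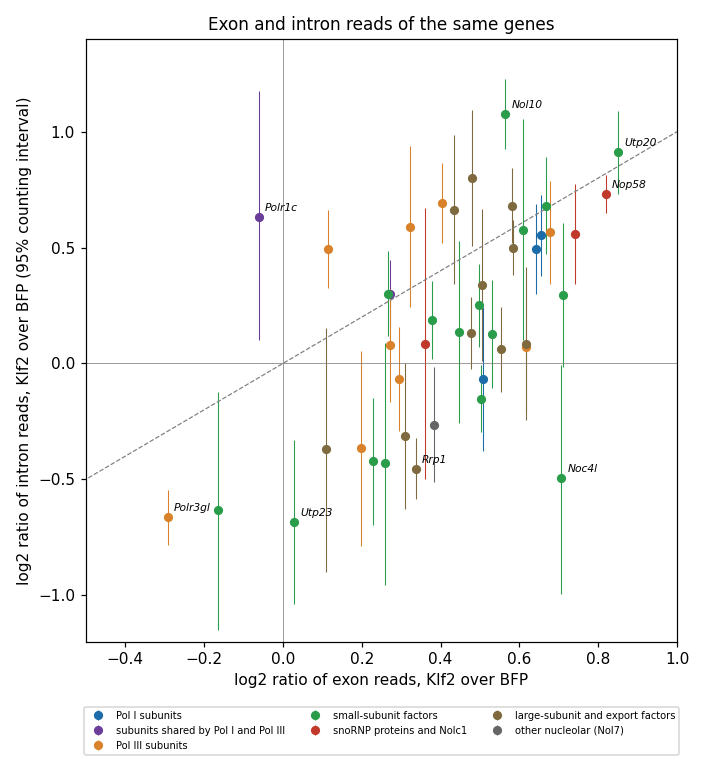
Log2 ratio of intron reads (vertical, bars are exact 95% counting intervals) against that of exon reads (horizontal) for 45 members with at least 100 intron reads, coloured by role, with a dashed line of equality. 33 points lie below the line, and Polr3gl and Rrp36 lie below 0 on both axes.

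Other genes of these pathways, listed from general knowledge, were mostly higher too. Of 141 measured pathway genes outside the name rule, Pol II subunits left aside, 121 had an interval above 1 and 11 one below. At least 1.5-fold higher were 31 of them, and their median log2 ratio was 0.40. Over all measured genes those shares were 37.1%, 37.3% and 10.2%. With total exon reads 109 had an interval above 1 and 16 passed 1.5-fold, where 30.4% and 7.1% of all measured genes did. With the top level group set to 0 it was 95 and 8, where 25.3% and 5.4% did. At that setting the number past 1.5-fold, 8 of 141, was close to the share of all measured genes. Subunits common to Pol I, Pol II and Pol III were higher in 5 of 5 cases (median 0.63), led by Polr2k at 20.5 and 37.5 CPM, a ratio of 1.83 (1.66 to 2.02) with only 28.9% of reads uniquely placed. Subunits of Pol II alone had a median of 0.43, with 6 of 7 intervals above 1, so polymerase genes were also higher outside Pol I and Pol III. The remaining Pol I subunits, listed under older symbols, were Cd3eap at 1.74 (1.605 to 1.89), Twistnb at 1.12 (1.03 to 1.23), an interval that held 1 with total exon reads, and Znrd1 at 1.06 (0.977 to 1.15).

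Initiation factors were less uniform. The Pol I list of 8 also holds the termination factor Ttf1 and the nucleolar protein Tcof1. Against 37.1% of all measured genes, 7 genes of this list had an interval above 1 (median 0.40). Among them, named after their values were seen, were Rrn3, the factor that makes Pol I competent to initiate, at 106 and 139.6 CPM, Ubtf, which holds ribosomal genes open, at 296 and 395 CPM. The highest ratios were those of 3 subunits of the promoter complex SL1, Taf1d at 1.63, Taf1b at 1.51 and Taf1a at 1.46. The SL1 gene Taf1c was lower, at 0.867 (0.790 to 0.952), and Ttf1 and Tcof1 were at 1.12 each. With the top level group set to 0, Ttf1 was at 0.998 and Tcof1 at 1.002, with an interval that held 1. That of Ttf1 also held 1 with total exon reads and without lane 3 or lane 4. The Pol III list of 17 also holds the repressor Maf1 and the core subunit Crcp, and 12 of its genes had an interval above 1 and 5 one below, with a median of 0.22. Without those 2 genes, 11 of 15 had an interval above 1 and 4 one below, with a median of 0.25. Over all measured genes 37.1% had an interval above 1 and 37.3% one below. Of the 15, 8 had an interval above 1 with total exon reads, where 30.4% of all measured genes did. With the top level group set to 0 it was 5 of 15, not far above the 25.3% of all measured genes. The 5 below were Brf2 at 12.4 and 8.37 CPM (0.672, 0.571 to 0.790), Maf1 at 68.5 and 46.2 CPM (0.674, 0.630 to 0.722), Snapc2 at 0.764, Snapc3 at 0.868 and Brf1 at 0.900. Maf1 is the main repressor of Pol III. Snapc3 and Brf1, named after their values were seen, complete the count of 5. Brf2 and the Snapc genes serve the Pol III promoters of small nuclear RNAs, and Brf1 those of transfer RNAs and 5S RNA. The other Snapc genes, also named after their values were seen, had intervals above 1. They were Snapc1 at 1.24 (1.03 to 1.49), Snapc4 at 1.16 (1.09 to 1.23) and Snapc5 at 1.30 (1.02 to 1.67). At the other end stood Gtf3c5, a subunit of the transfer RNA promoter factor TFIIIC, at 1.59 (1.48 to 1.71) with 50.3% of reads uniquely placed, Bdp1 at 1.33 and Gtf3c4 at 1.33.

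Assembly factors without these name prefixes followed the members. For comparison, 37.1% of all measured genes had an interval above 1. In the small-subunit list 28 of 32 had an interval above 1 (median 0.48), with Pno1 at 1.82, Tsr1 at 1.62 and Wdr43 at 1.59 highest and Nob1, the nuclease of the last 18S cleavage, lowest at 0.947 (0.9003 to 0.997). Without lane 1 or without lane 4 the Nob1 interval held 1. In the large-subunit list it was 39 of 42 (median 0.36). Rpf2, which brings the 5S particle in, was highest at 46.5 and 89.9 CPM (1.93, 1.81 to 2.06). Nmd3, the export adaptor, followed at 1.81 and Mrto4 at 1.79. Lowest were Sbds at 0.951, Zfp622 at 0.948 and Nsa2 at 0.925. The intervals of Sbds (0.903 to 1.001) and Zfp622 (0.878 to 1.02) held 1. With total exon reads they lay below 1, at ratios of 0.893 and 0.890. Uniquely placed reads alone, 23.1% of the total, gave a ratio of 1.03 for Nsa2. The snoRNP list had 7 of 8 above 1 (median 0.51), with Dkc1, the pseudouridine synthase that works with Nop10, at 1.52 (1.46 to 1.59) and Fbl, the methyltransferase that works with Nop56 and Nop58, at 1.498 with 7.65% of reads uniquely placed. Abundant nucleolar proteins were higher in 5 of 5 cases (median 0.51), among them Ncl at 1104 and 1717 CPM and Npm1 at 701 and 914 CPM.

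**Figure D5:**
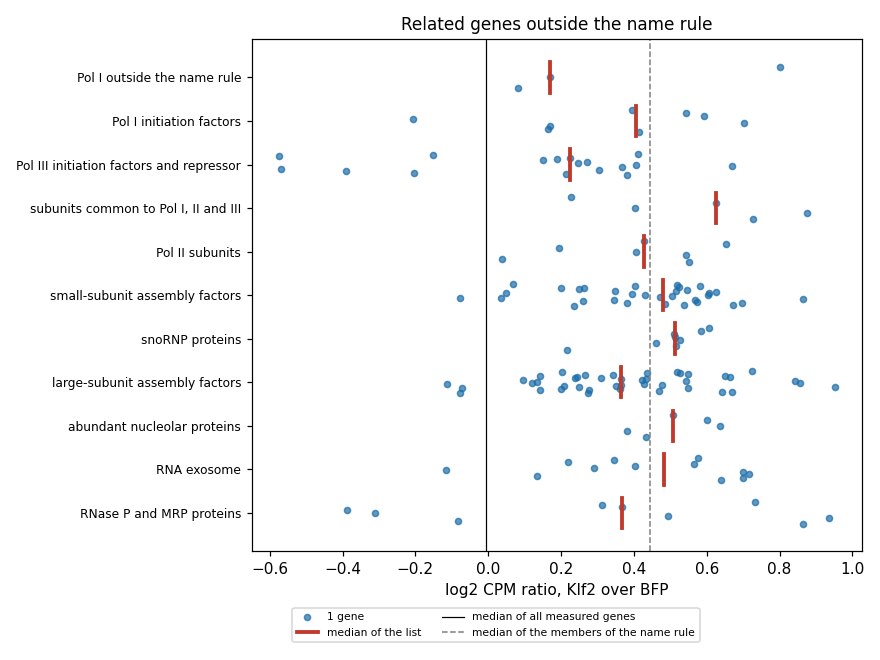
Log2 CPM ratio of each measured gene (points) in 11 lists of related genes outside the name rule, with the list's median (red bar), the median of all measured genes (solid line) and that of the members (dashed line). The points of the Pol III initiation list reach from -0.57 for Brf2 to 0.67 for Gtf3c5, on both sides of 0.

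The stretches before the start sites of the members were searched on both strands for 4 short motifs. RefSeq windows of 250 bases matched 42 of the 52 members, with 47 windows, since a gene with several start sites has several. CACGTG was in 7 member windows (14.9%), 6.02% of all 32851 windows and 8.61% of the windows of measured genes. Its holders were Nol11, Nop2, Polr3c, Polr3gl, Rrp7a, Utp14b and Utp18, whose measured members had a median log2 ratio of 0.34, against 0.51 for those without it. CCGGAAG was in 23.4% of member windows and 14.8% of those of measured genes, GGGTG, the core of the CACCC box read by KLF factors, in 59.6% and 56.7%, and GGGCGG, the GC box, in 70.2% and 58.2%. GGGTG and GGGCGG can overlap each other. Members with and without the motif had medians of 0.44 and 0.50 for the ETS-type letters, 0.50 and 0.39 for the KLF-type letters and 0.50 and 0.40 for the GC box. A match is a description of these letters only.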

How the data were processed

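Poly(A) RNA of 8 deposited samples (4 lanes of each of 2 libraries) was read on a HiSeq, per the labels' protocols. The submitters' processing notes name CASAVA 1.8.2 and mm10. The aligner, counter, annotation and use of strand were not given in the sources used here. The authors deposited counts per gene and lane, per the file headers (all and uniquely placed exon reads, gene reads, junction reads), and RPKM, which was recomputed from those counts to within 0.0258. Other values were computed here: lanes were summed, all exon reads were scaled by TMM in edgeR 4.0.16 (R 4.3.3; factors 1.03 for BFP, 0.969 for Klf2), and each CPM ratio got an exact Clopper-Pearson 95% interval in scipy 1.17.1. A gene was measured at 1 CPM or more in either library. Intron reads are gene reads minus exon reads, on the exon scale. A count of 0 (3 reads) allows 0.0996 CPM in BFP and 0.0973 in Klf2. No molecular identifiers are mentioned, so intervals cover counting error only. The ratio and interval were tested on simulated data with counting error only and known library sizes. That did not test the scaling or the fold limits. The members and lists were chosen with earlier results of these data known. All members may be named (lane values for the highest and lowest of each role and for related pairs), and of each list the 3 highest and 3 lowest genes, and others are said to be named after their values were seen. Values of 1 measured member and of 1 marker are not reported here by gene, though both are in the counts. Overlapping genes and strands are from GENCODE M21 (mm10).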

Additional observations from a re-analysis of the deposited data

How the results depend on the processing

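With 1 library per group nothing here measures variation between cultures or preparations, and counting error is small at these depths, so intervals exclude 1 at small folds. The members' median log2 ratio of 0.45 became 0.35 with total exon reads and no factor, 0.28 with the median of the genes of highest level set to 0, 0.36 with the deposited RPKM and 0.49 in the 42 members with at least 90% uniquely placed reads, a limit chosen after seeing the data. The 13 members past 1.5-fold became 7, 3 and 7 under the first 3 of these, which follows from the lower scale of every ratio. The share of all measured genes, 10.2%, became 7.1%, 5.4% and 6.71%. Leaving out 1 lane number at a time in both libraries gave medians of 0.42 to 0.47, 12 to 15 members past 1.5-fold and 44 with an interval above 1. Size factors by median of ratios, uniquely placed reads, log2(CPM + 1), no floor and a floor of 10 CPM kept the median between 0.44 and 0.45. No member reached 2-fold higher under any setting run. Settings were compared gene by gene only for the members and the highest and lowest genes of each list. Other list genes may change direction too. Of the compared genes whose interval excluded 1, Nol12 (0.961), Polr3e (0.965) and Ttf1 (0.998) reversed with the median of the genes of highest level set to 0. Nsa2 (1.03) reversed on uniquely placed reads. Of the compared genes whose interval had held 1, Rrp36 crossed 1 on uniquely placed reads (1.03), and Rpp38 and Utp23 when a lane was left out. With the median of the genes of highest level set to 0, Utp23, Exosc9, Imp3 (0.921), Ngdn (0.913), Polr2i and Znrd1 crossed 1. All of these last but Exosc9 also crossed 1 with total exon reads and RPKM. The scaling of the related lists, the Pol III list without Maf1 and Crcp and the unique-read comparison of Polr3g with Polr3gl were added after seeing the data. No paired analysis was possible because the numbers the groups share are lanes of 1 library each.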

Other observations

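Genes that trim or cut ribosomal and transfer RNA precursors, listed from general knowledge, were also mostly higher in the Klf2 library. For the RNA exosome, which trims RNA from its 3′ end, the interval lay above 1 in 10 of 12 genes and below 1 in 1, with a median log2 ratio of 0.48. Over all measured genes, 37.1% had an interval above 1 and 37.3% one below. Exosc8 was at 87.4 and 144 CPM in BFP and Klf2, a ratio of 1.64 (1.57 to 1.72), and Exosc7 and Mphosph6 were at 1.62 each, while Exosc5 was at 0.922 (0.861 to 0.988). The Exosc5 interval held 1 without lane 1 and without lane 3. For RNase P and RNase MRP, which cut transfer RNA and ribosomal RNA precursors, 6 of 9 had an interval above 1 and 2 one below, with a median of 0.37. Rpp30 was at 24.4 and 46.6 CPM, a ratio of 1.91 (1.748 to 2.09), Rpp40 at 1.82 (1.55 to 2.13) and Pop1 at 1.66 (1.53 to 1.7995). Rpp21 was lower at 0.807 (0.723 to 0.900), and Pop7, with 143 against 105 reads, was at 0.764 (0.588 to 0.990), an interval that held 1 without lane 3, without lane 4 and by its uniquely placed reads (0.709, 0.494 to 1.01), 54.8% of the total. Rpp38 was at 0.945 (0.771 to 1.16).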
